A study of Mus musculus with 12 samples.

Results

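The genes described here were 40 interferon-stimulated genes, taken by symbol from a table of 35275 genes measured in mouse kidney. They were 8 regulators of transcription, 5 sensors of nucleic acid, 12 antiviral effectors, 5 genes of the Isg15 and ADP-ribosylation systems, 6 GTPases inducible by interferon-gamma and 4 other induced genes. All 40 had reads in every mouse and passed the filter on low counts in all 3 comparisons. RNA was sequenced from the kidneys of 12 C57BL/6J mice at 6 months of age, in 3 groups of 4 mice with 2 females and 2 males each. WT mice carried no engineered allele. RC/RC mice carried a hypomorphic knock-in missense allele of Pkd1, the gene most often mutated in autosomal dominant polycystic kidney disease, on both chromosomes in all cells, and they develop slowly progressive cysts. RC/RC:Casp1KO mice carried the same Pkd1 alleles together with homozygous disruption of Casp1, which encodes the protease at the core of the inflammasome. The Casp1 allele was a small TALEN-made deletion present in every tissue, so it was not restricted to the kidney or to immune cells. Gene-assigned reads per mouse numbered 20556335 to 22656309 in WT, 18019819 to 24284831 in RC/RC and 18738755 to 24869454 in RC/RC:Casp1KO. Mouse letters a to d below are names within a group and do not link mice of different groups.

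Interferons are secreted cytokines that place cells in an antiviral state. Type I interferons signal through Ifnar1 and Ifnar2 and the kinases Jak1 and Tyk2 to form a complex with Stat2 and Irf9 in it, which binds the interferon-stimulated response element (ISRE) in the promoters of target genes. Interferon-gamma signals through Ifngr1 and Ifngr2 to the gamma-activated site (GAS) and induces genes such as Irf1 and those of the guanylate-binding proteins. In kidney, both resident cells and infiltrating leukocytes can respond to interferon.

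The promoter sequences around the annotated starts were searched for both elements. RefSeq windows on GRCm38.p6, the patch release of mm10 and so the build of the deposited table, were found for 31 members and span 250 bases before to 50 bases from the annotated start. The letters of an ISRE core (GAAA-NN-GAAA, where N is any base, on either strand) were found in the windows of 17 of these 31 genes (54.8%), against 3.99% of the 27025 genes with a window. The letters of a GAS (TTC-NNN-GAA, which reads the same on both strands) were found in 11 of the 31 (35.5%), against 9.55% of all genes. The 2 motifs overlapped in Bst2, and neither was found in the windows of Irf3, Irf5, Irf7, Irf9, Oasl1, Oasl2, Trim25, Ifi44 and Xaf1. Of the 12 genes with a window that were higher in RC/RC than in WT kidneys (given below), 6 held an ISRE core (50%), as did 11 of the 19 others (57.9%). The ISRE cores of these 6 genes are printed here in the direction of the gene, with the motif in capitals. An ISRE on the opposite strand reads as TTTC-NN-TTTC, and capitals longer than one motif mark overlapping matches.
Isg15, chr4:156200865-156200906, minus strand: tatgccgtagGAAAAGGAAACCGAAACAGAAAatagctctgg
Bst2, chr8:71537577-71537612, minus strand: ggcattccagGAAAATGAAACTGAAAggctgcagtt
Ifit1, chr19:34640775-34640823, plus strand: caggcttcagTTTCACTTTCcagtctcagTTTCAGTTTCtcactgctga
Ifit3, chr19:34583363-34583426, plus strand: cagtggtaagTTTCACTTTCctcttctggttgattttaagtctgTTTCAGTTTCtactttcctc
Gbp2, chr3:142620594-142620623, plus strand: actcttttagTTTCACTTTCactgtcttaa
Gbp5, chr3:142496759-142496788, plus strand: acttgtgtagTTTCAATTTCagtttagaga
Irf1 and Irf8, the 2 regulators with a GAS that were higher in RC/RC kidneys, are shown for contrast, with the GAS in capitals and no ISRE core in the window.
Irf1, chr11:53769914-53769942, plus strand: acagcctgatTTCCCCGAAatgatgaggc
Irf8, chr8:120736177-120736223, plus strand: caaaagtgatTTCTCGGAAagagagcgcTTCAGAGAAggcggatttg
Stat2 and Rsad2 held the same kind of ISRE core and did not pass the test in any comparison.
Stat2, chr10:128270266-128270295, plus strand: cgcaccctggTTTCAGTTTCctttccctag
Rsad2, chr12:26456553-26456582, minus strand: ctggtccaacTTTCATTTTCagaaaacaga
A match is a run of letters and not a measured site of binding, and binding was not measured. No window was found for Parp14, Usp18, Dhx58, Oas2, Ifi27, Mx1, Parp9, Mx2 and Zbp1.

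**Figure D1:**
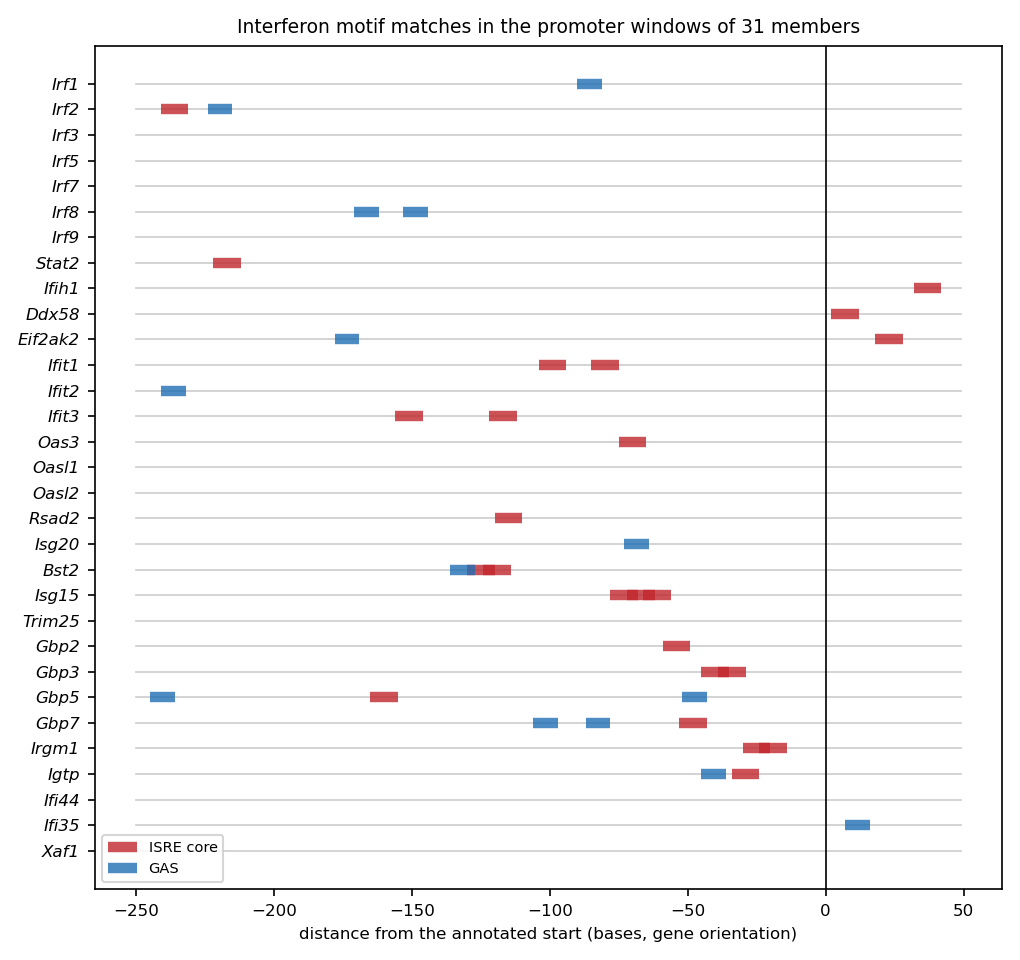
Each line is the promoter window of 1 of the 31 members, with distance from the annotated start in bases on the x axis. Red blocks mark ISRE cores (17 genes) and blue blocks mark GAS letters (11 genes), most of them upstream of the start, with ISRE cores after the start in Ifih1, Ddx58 and Eif2ak2.

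Casp1 was checked first in every mouse. It was counted at 43, 27, 26 and 30 reads in the WT mice, at 87, 73, 79 and 61 reads in the RC/RC mice and at 10, 14, 12 and 23 reads in the RC/RC:Casp1KO mice. Every RC/RC mouse lay above every WT mouse, and every RC/RC:Casp1KO mouse lay below both other groups. The deleted bases were not counted apart from the rest of the gene, and the source of the remaining reads was not tested. Fold changes and adjusted p-values here and below come from the quasi-likelihood test of edgeR, with Benjamini-Hochberg adjustment over all genes tested. Casp1 was higher in RC/RC than in WT (log2 fold change 1.21, SE 0.25, adjusted p = 0.0142) and lower in RC/RC:Casp1KO than in RC/RC (log2 fold change −2.35, SE 0.32, adjusted p = 0.00514).

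In cystic RC/RC kidneys, 16 of the 40 interferon-stimulated genes (40%) were higher than in WT kidneys and none was lower, at an adjusted p under 0.05. Over all 15243 genes tested, 9.76% were higher and 3.18% were lower at that threshold. Of the 40, 26 were higher at an unadjusted p under 0.05 (17.3% of all genes were) and none was lower (12% of all genes were). DESeq2 called 20 members higher and none lower, against 10.6% of all genes higher and 5.39% lower. The 16 genes were 5 regulators (Irf8, Irf1, Irf7, Irf5 and Irf9), 1 sensor (Zbp1), 4 antiviral effectors (Oas2, Ifit1, Bst2 and Ifit3), Isg15 and Parp14, 2 GTPases (Gbp2 and Gbp5), and Ifi35 and Ifi27. Their log2 fold changes ran from 0.62 for Parp14 to 1.61 for Isg15. The median log2 fold change of the 40 was 0.75, against −0.02 over all genes tested, and 38 of the 40 had a positive sign. In 14 members all 4 RC/RC mice lay above all 4 WT mice (35.0%, against 12.6% of all genes tested), and in none did they lie below (7.05% of all genes). In bulk kidney RNA, a change in the number of cells of a type and a change in RNA per cell cannot be told apart.

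**Figure D2:**
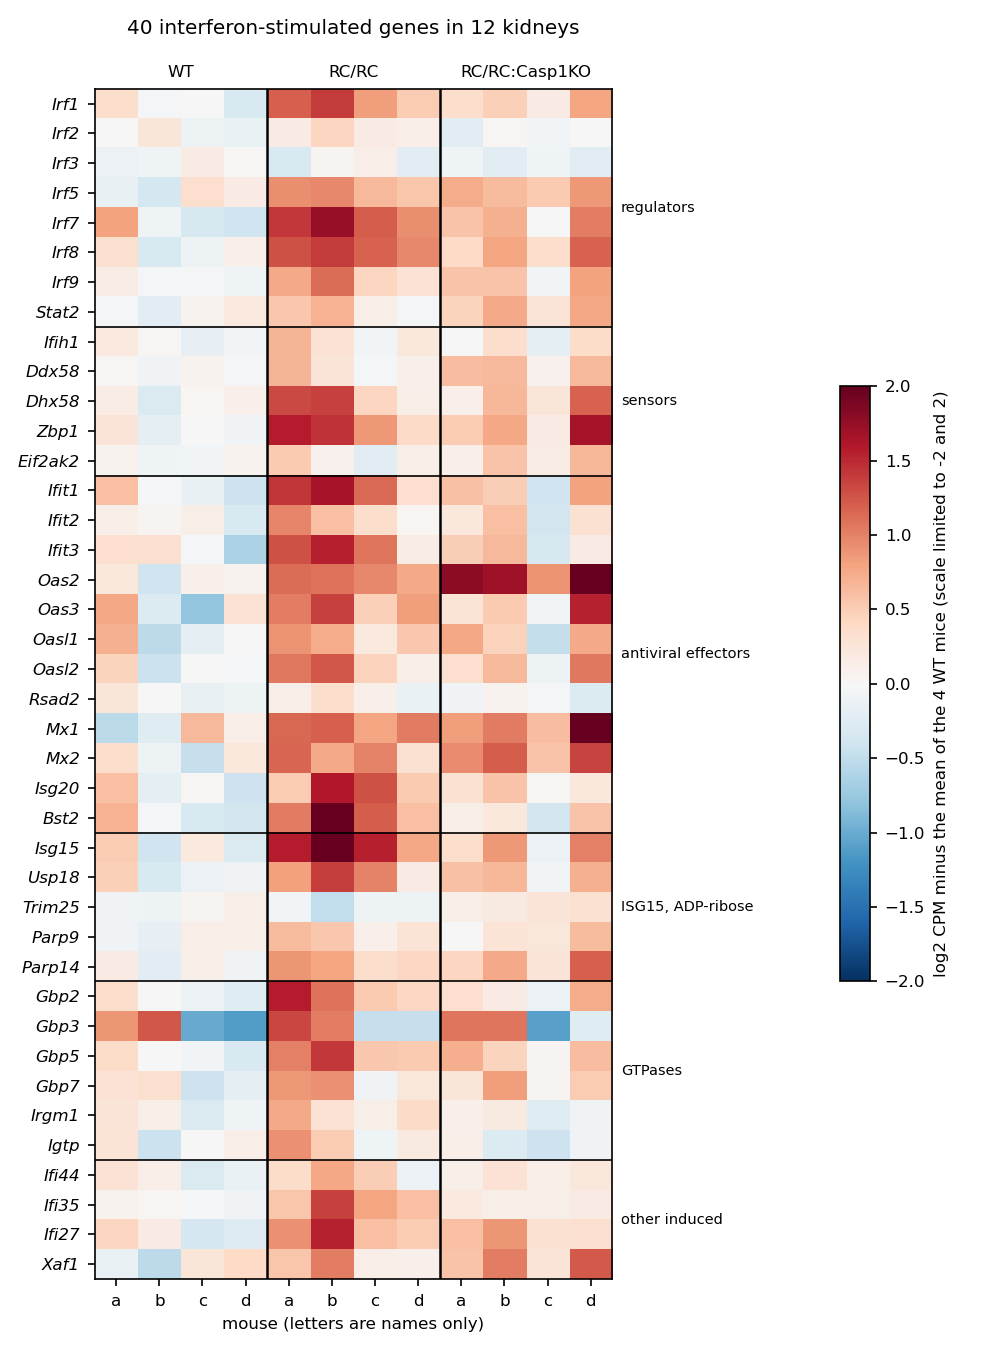
Rows are the 40 genes by role, columns the 12 mice, and color is log2 CPM minus the mean of the 4 WT mice of that gene. RC/RC mice a and b are reddest over most rows, RC/RC mouse d is closer to WT, and RC/RC:Casp1KO mice c and d stand at opposite ends of their group.

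Among the regulators, Irf7, the factor that amplifies type I interferon production, was measured at 21.4, 11.6, 9.81 and 9.28 CPM (read counts scaled to a common library size with TMM factors) in the 4 WT mice and at 32.7, 41.2, 28.3 and 23.3 CPM in the RC/RC mice. The 4 RC/RC:Casp1KO mice had 18.3, 20.0, 12.4 and 24.9 CPM. The RC/RC and WT mice did not overlap, although WT mouse a came close to the lowest RC/RC mouse, and the RC/RC:Casp1KO mice overlapped both groups. Irf7 rose in RC/RC by a log2 fold change of 1.27 (SE 0.28, adjusted p = 0.0176). Irf8, a factor of myeloid and dendritic cells, had the lowest adjusted p of the members. Its levels were 21.3, 13.9, 15.9 and 18.4 CPM in WT mice, 41.3, 45.1, 39.0 and 33.4 CPM in RC/RC and 22.5, 29.5, 22.0 and 38.9 CPM in RC/RC:Casp1KO mice. All 4 RC/RC mice and all 4 RC/RC:Casp1KO mice lay above WT, and Irf8 passed the test in RC/RC against WT (log2 fold change 1.19, SE 0.15, adjusted p = 0.00167) and not in RC/RC:Casp1KO against WT (0.71, SE 0.21, adjusted p = 0.117). Irf1, the regulator induced by interferon-gamma, stood at 20.0, 15.4, 15.6 and 12.8 CPM in WT mice, at 36.2, 41.4, 28.1 and 22.3 CPM in RC/RC and at 20.0, 21.9, 17.6 and 27.2 CPM in RC/RC:Casp1KO mice. The WT and RC/RC mice were apart and the RC/RC:Casp1KO mice bridged them. Its log2 fold change in RC/RC was 1.00 (SE 0.21, adjusted p = 0.0131).

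Irf9, the DNA-binding subunit of the type I complex, was at 22.7, 20.1, 20.0 and 19.2 CPM in WT mice, 34.4, 44.4, 27.5 and 25.0 CPM in RC/RC and 30.4, 30.2, 19.8 and 35.5 CPM in RC/RC:Casp1KO mice. The lowest RC/RC mouse exceeded the highest WT mouse, and RC/RC:Casp1KO mouse c sat within the WT range (log2 fold change in RC/RC 0.68, SE 0.18, adjusted p = 0.0337). Stat2, its partner, was at 20.9, 18.4, 22.5 and 24.4 CPM in WT mice, 31.1, 34.6, 23.2 and 21.0 CPM in RC/RC and 29.2, 36.1, 25.7 and 36.8 CPM in RC/RC:Casp1KO mice. For Stat2 the RC/RC mice overlapped WT, and the 4 RC/RC:Casp1KO mice lay above WT without passing the test (log2 fold change against WT 0.57, SE 0.14, adjusted p = 0.0792). Irf5, a factor downstream of Toll-like receptors, was at 11.3, 9.85, 15.9 and 14.1 CPM in WT mice, 23.9, 24.6, 19.6 and 18.5 CPM in RC/RC and 21.0, 19.5, 18.2 and 23.0 CPM in RC/RC:Casp1KO mice. Both groups with RC alleles lay above WT, and RC/RC passed the test (log2 fold change 0.76, SE 0.17, adjusted p = 0.0206) while RC/RC:Casp1KO against WT had an adjusted p of 0.0700. Irf3, the constitutive partner of the sensing pathways and the member with the third highest level per length, overlapped among all groups. It was at 42.4, 43.2, 51.3 and 46.7 CPM in WT mice, 37.1, 47.7, 50.4 and 39.7 CPM in RC/RC and 43.1, 39.1, 42.9 and 38.9 CPM in RC/RC:Casp1KO mice. Irf2, which can repress interferon responses, had a log2 fold change of 0.22 in RC/RC (SE 0.12, adjusted p = 0.259).

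Of the 5 sensors, Zbp1, which senses Z-form nucleic acid and can trigger cell death, was the member that rose in RC/RC. It was at 2.48, 1.81, 2.06 and 1.98 CPM in WT mice, 6.12, 5.61, 3.76 and 2.70 CPM in RC/RC and 2.94, 3.53, 2.33 and 6.58 CPM in RC/RC:Casp1KO mice. RC/RC mouse d was just above WT mouse a, and the log2 fold change was 1.12 (SE 0.29, adjusted p = 0.0317). The RNA helicases Ifih1 (MDA5) and Ddx58 (RIG-I) had log2 fold changes of 0.30 and 0.28 with adjusted p-values of 0.246 and 0.252, and Dhx58 (LGP2) had 0.90 with an adjusted p of 0.0912. Eif2ak2, the kinase PKR that stops translation on double-stranded RNA, had 0.15 (adjusted p = 0.532).

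Among the 12 antiviral effectors, Bst2, or tetherin, which holds budding virus at the cell surface, was at 29.8, 17.9, 14.9 and 14.1 CPM in WT mice, 37.4, 76.9, 42.2 and 27.9 CPM in RC/RC and 19.8, 21.3, 14.2 and 27.1 CPM in RC/RC:Casp1KO mice. WT mouse a overlapped RC/RC mouse d, while all 4 RC/RC:Casp1KO mice lay below all 4 RC/RC mice. Bst2 rose in RC/RC (log2 fold change 1.26, SE 0.34, adjusted p = 0.0376) and fell in RC/RC:Casp1KO against RC/RC (−1.17, SE 0.30, adjusted p = 0.0399). Oas2, which makes the oligoadenylates that activate RNase L, followed another order, at 2.76, 1.81, 2.57 and 2.50 CPM in WT mice, 5.16, 5.03, 4.62 and 4.03 CPM in RC/RC and 8.21, 7.67, 4.43 and 13.0 CPM in RC/RC:Casp1KO mice. Both groups lay above WT, and 3 of the 4 RC/RC:Casp1KO mice were above every RC/RC mouse. Oas2 rose against WT in RC/RC (log2 fold change 0.96, SE 0.21, adjusted p = 0.0147) and in RC/RC:Casp1KO (1.80, SE 0.32, adjusted p = 0.0277). Ifit1, which binds foreign RNA caps, was at 8.58, 5.57, 5.13 and 4.24 CPM in WT mice, 15.3, 17.7, 12.4 and 7.20 CPM in RC/RC and 8.55, 7.96, 4.32 and 9.94 CPM in RC/RC:Casp1KO mice. RC/RC mouse d fell within the WT range for Ifit1 and for Ifit3, its binding partner, and their log2 fold changes in RC/RC were 1.16 (adjusted p = 0.0348) and 1.04 (adjusted p = 0.0492). With 1 mouse left out at a time, Bst2 and Ifit1 were each called higher in RC/RC in 2 of 8 fits and Ifit3 in 1. Ifit3 was not called with RLE factors or with at least 10 counts in every mouse.

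The other 8 effectors did not pass the test in RC/RC. Their log2 fold changes were 0.52 for Ifit2, 0.84 for Oas3, 0.54 for Oasl1, 0.75 for Oasl2, 0.98 for Mx1, 0.80 for Mx2, 1.00 for the exonuclease Isg20 and 0.11 for Rsad2 (viperin). Rsad2 was at 39.8 ± 4.9 CPM in WT (SD, n = 4) and 42.9 ± 5.9 CPM in RC/RC, and so differed by less than the spread between mice. Mx1, whose allele in C57BL/6 mice is known to be defective, had all 4 RC/RC mice above WT (1.56 to 2.06 against 0.619 to 1.41 CPM) and an adjusted p of 0.0637.

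Isg15, a ubiquitin-like modifier, had the largest log2 fold change of the 40 members in RC/RC against WT. It was at 4.00, 2.14, 3.22 and 2.31 CPM in WT mice, 8.37, 14.1, 8.32 and 4.84 CPM in RC/RC and 3.59, 5.15, 2.61 and 5.66 CPM in RC/RC:Casp1KO mice. The RC/RC mice lay above WT and the RC/RC:Casp1KO mice overlapped both, with a log2 fold change in RC/RC of 1.61 (SE 0.34, adjusted p = 0.0141). Usp18, which removes Isg15 from proteins and dampens type I signaling, had 0.87 (SE 0.28, adjusted p = 0.0718). Parp14, an ADP-ribosyltransferase, was at 25.0, 19.1, 24.3 and 21.3 CPM in WT mice, 41.2, 38.8, 28.5 and 29.8 CPM in RC/RC and 30.2, 37.9, 26.8 and 51.1 CPM in RC/RC:Casp1KO mice. Both groups lay above WT, and Parp14 rose in RC/RC (log2 fold change 0.62, SE 0.15, adjusted p = 0.0269). Its relative Parp9 had 0.40 (adjusted p = 0.0984). Trim25, a ubiquitin ligase that acts on RIG-I, had a negative value and did not pass the test (−0.18, SE 0.12, adjusted p = 0.366).

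Of the 6 interferon-gamma-inducible GTPases, Gbp2, a guanylate-binding protein that attacks the vacuoles of pathogens, was at 17.8, 13.9, 12.8 and 11.7 CPM in WT mice, 41.1, 29.5, 19.9 and 18.4 CPM in RC/RC and 17.5, 15.5, 12.8 and 23.2 CPM in RC/RC:Casp1KO mice. The RC/RC mice were above WT, the lowest of them by little, and Gbp2 rose (log2 fold change 0.96, SE 0.26, adjusted p = 0.0397). Gbp5, which promotes assembly of the Nlrp3 inflammasome, was at 6.10, 4.71, 4.58 and 3.86 CPM in WT mice, 9.56, 12.6, 6.87 and 6.82 CPM in RC/RC and 7.87, 6.43, 4.93 and 7.27 CPM in RC/RC:Casp1KO mice. It was again without overlap between RC/RC and WT (log2 fold change 0.90, SE 0.24, adjusted p = 0.0404). Gbp7, Irgm1 and Igtp had log2 fold changes of 0.51, 0.39 and 0.41 and did not pass the test.

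Gbp3 differed more within groups than between them. It was at 37.5, 48.6, 10.2 and 9.42 CPM in WT mice a to d, at 51.7, 41.6, 14.8 and 14.8 CPM in RC/RC mice and at 43.1, 43.0, 9.59 and 17.2 CPM in RC/RC:Casp1KO mice, so mice a and b of each group were above mice c and d. Mice a and b of each group also had 5280 to 17320 reads of Xist, the RNA of the inactive X chromosome, against 1 to 18 reads in mice c and d. Ddx3y, a gene of the Y chromosome, had 0 to 3 reads in mice a and b and 1029 to 1676 reads in mice c and d. Xist was looked up after the split in Gbp3 was seen. The labels give 2 females and 2 males per group and the columns of the table do not name the sex, so no comparison by sex was made. The log2 fold change of Gbp3 in RC/RC was 0.22 (SE 0.60, adjusted p = 0.836), and 0.34 (SE 0.14, adjusted p = 0.121) in a fit with a term for mice with over 1000 reads of Xist, which was added after these values were seen.

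Among the 4 remaining genes, Ifi27, a mitochondrial protein gene, had the highest level per length of the 40, at 40.5 ± 10.4 FPKM in WT, 76.3 ± 27.0 FPKM in RC/RC and 57.7 ± 11.3 FPKM in RC/RC:Casp1KO mice (SD, n = 4). In CPM it was at 52.1, 43.2, 30.4 and 32.3 in WT, 72.6, 112, 58.8 and 54.6 in RC/RC and 58.8, 71.0, 47.6 and 48.0 in RC/RC:Casp1KO mice. RC/RC did not overlap WT, and the log2 fold change was 0.92 (SE 0.25, adjusted p = 0.0434). Ifi35, which binds Nmi and modulates innate signaling, was at 6.77, 6.57, 6.24 and 6.12 CPM in WT mice, 9.41, 16.5, 11.1 and 9.73 CPM in RC/RC and 7.33, 6.96, 6.98 and 7.18 CPM in RC/RC:Casp1KO mice. The 3 groups did not overlap, with WT lowest and RC/RC highest. Ifi35 rose in RC/RC (log2 fold change 0.86, SE 0.20, adjusted p = 0.0195) and fell in RC/RC:Casp1KO against RC/RC (−0.72, SE 0.19, adjusted p = 0.0416). Ifi44 and the pro-apoptotic Xaf1 had 0.39 and 0.45 in RC/RC and did not pass the test.

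**Figure D3:**
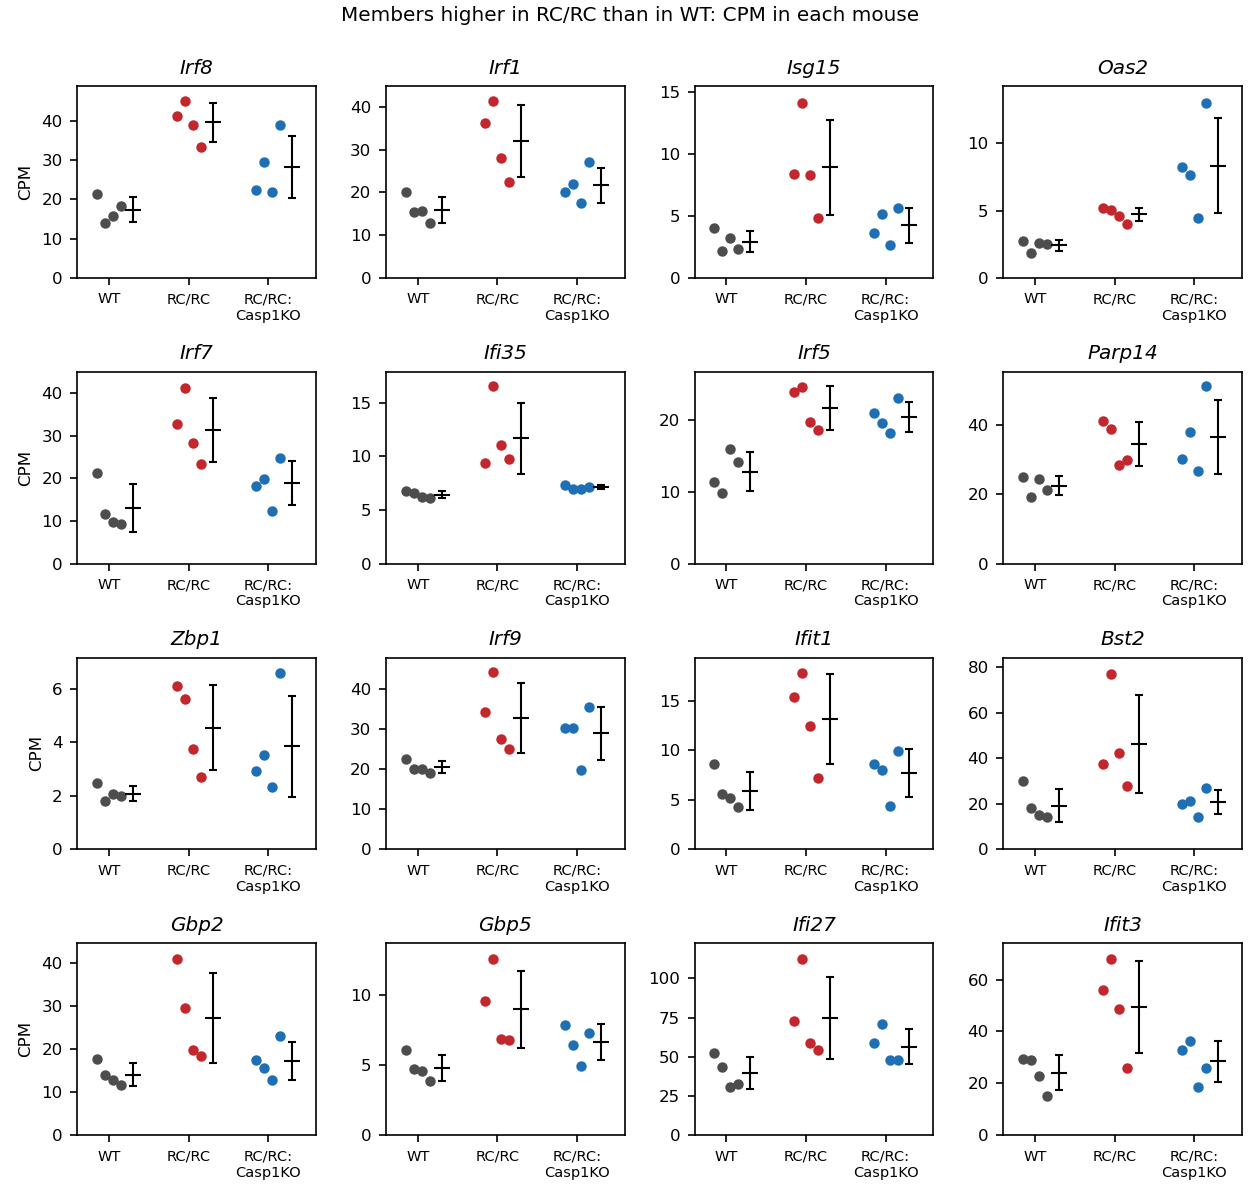
Each panel is 1 of the 16 genes higher in RC/RC than in WT, with CPM on the y axis from 0, a point for each mouse, and the mean and SD of the 4 mice beside them. The RC/RC points lie above the WT points in all panels except Ifit1, Bst2 and Ifit3, and the highest point of a panel is an RC/RC:Casp1KO mouse for Oas2, Zbp1 and Parp14.

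The number of calls in RC/RC against WT changed when single mice were left out. Without WT mouse b, c or d it was 6, 9 or 5, and without RC/RC mouse a or b it was 6 or 5. It was 14 without WT mouse a, 12 without RC/RC mouse c and 20 without RC/RC mouse d, and 4 genes (Irf1, Irf8, Oas2 and Isg15) were called in all 8 of these fits. The sign of the median of the 40 did not change in any of them, with medians from 0.58 to 0.85. The shares of all genes called in these smaller fits are not given here, so the changes in number cannot be read as particular to the members. RC/RC mouse d had the lowest level of its group for 24 of the 40 members, and mice a and b, both with high Xist reads, had the highest for 15 and 24. WT mouse a had the highest level of its group for 29 members and WT mouse b the lowest for 17, and both had high Xist reads. With the term for Xist reads, 19 members were called higher (12.3% of all genes were) and none lower (5.93%), all 16 among them, and Mx1, Usp18 and Gbp7 were the others.

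The second comparison asked what loss of Casp1 did to these genes in cystic kidneys. Of the 40 members, 2 fell in RC/RC:Casp1KO against RC/RC, Bst2 and Ifi35 (5.00%, against 4.41% of the 15428 genes tested), and none rose (7.23% of all genes did), so the share that fell was near that of all genes. The median log2 fold change was −0.25, against −0.03 over all genes tested, with 31 negative and 9 positive signs. At an unadjusted p under 0.05, 13 members were lower (16.4% of all genes were) and 2 were higher (15.3%). Isg15 had −1.07 (SE 0.34, adjusted p = 0.0683), Irf7 had −0.74 (SE 0.22, adjusted p = 0.0585), Irf1 −0.57 (SE 0.20, adjusted p = 0.0859) and Irf8 −0.50 (SE 0.18, adjusted p = 0.0987). The 9 members with a positive sign were Stat2, Ddx58, Eif2ak2, Oas2, Mx1, Mx2, Trim25, Parp14 and Xaf1, none of which passed the test. Oas2 had 0.81 (SE 0.28, adjusted p = 0.0880) and Trim25, with all 4 RC/RC:Casp1KO mice above all 4 RC/RC mice, 0.38 (SE 0.12, adjusted p = 0.0689). The mice did not overlap in 3 members with lower values (Irf2, Bst2 and Ifi35, 7.50%, against 8.65% of all genes) and 1 with higher values (2.50%, against 11.8%).

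The number of calls in this comparison also changed when single mice were left out. Of these 8 fits, Bst2 was called in 3 and Ifi35 in 2. There were no calls without RC/RC mouse b or c or RC/RC:Casp1KO mouse a or b, and 7 without RC/RC mouse d. Without RC/RC:Casp1KO mouse c, 1 member was higher and none was lower. The shares of all genes called in these smaller fits are not given here, so the changes cannot be read as particular to the members. With library size alone as the scaling no member was called, and DESeq2 called 5 lower (7.87% of all genes) and 2 higher (9.76%). With the term for Xist reads, 6 of the 40 members were lower (Irf7, Ifit3, Igtp and Irgm1 beside Bst2 and Ifi35) and Trim25 was higher. In that fit 7.27% of all genes were lower and 9.85% higher, against 4.41% and 7.23% in the main fit. Whether calls rose more among the members than over all genes was not tested. RC/RC:Casp1KO mouse d had the highest level of its group for 25 of the 40 members, and mouse c had the lowest for 31. Both of these mice had low Xist reads, at 18 and 6.

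Against WT, with the same RC/RC:Casp1KO mice and the same WT mice as above, 1 member rose, Oas2 (2.50%, against 1.13% of the 15346 genes tested), and none fell (0.893%). In 9 members all 4 RC/RC:Casp1KO mice lay above all 4 WT mice (22.5%, against 7.41% of all genes, with 6.50% the other way and no member there): Irf5, Irf8, Stat2, Ddx58, Eif2ak2, Oas2, Mx2, Parp14 and Ifi35. At an unadjusted p under 0.05, 16 members were higher (11.8% of all genes) and none was lower (9.99%). The median log2 fold change was 0.43, against 0.01 over all genes tested. Oas2 was no longer called when any mouse other than RC/RC:Casp1KO mouse c was left out, where 4 members were called. Shares of all genes in these smaller fits are not given here, so this change cannot be read as particular to the members. With the term for Xist reads, 5 members were higher, Oas2, Stat2, Ifi27, Ddx58 and Irf5, against 4.51% of all genes higher and 3.68% lower. DESeq2 called 7 members higher and none lower, against 4.58% and 3.44% of all genes. By group means, 26 members ran in the order WT, RC/RC:Casp1KO, RC/RC from low to high. For 8 members (Stat2, Ddx58, Eif2ak2, Oas2, Mx1, Mx2, Parp14 and Xaf1) RC/RC:Casp1KO was highest and WT lowest. The place of Mx1 rested on RC/RC:Casp1KO mouse d, at 5.62 CPM against 1.39 to 1.86 CPM in the other 3, and without that mouse the log2 fold changes against RC/RC were −0.21 for Mx1 and −0.13 for Parp14. For Irf2, Rsad2, Irgm1 and Igtp RC/RC:Casp1KO was lowest and RC/RC highest, and Irf3 and Trim25 had orders of their own.

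**Figure D4:**
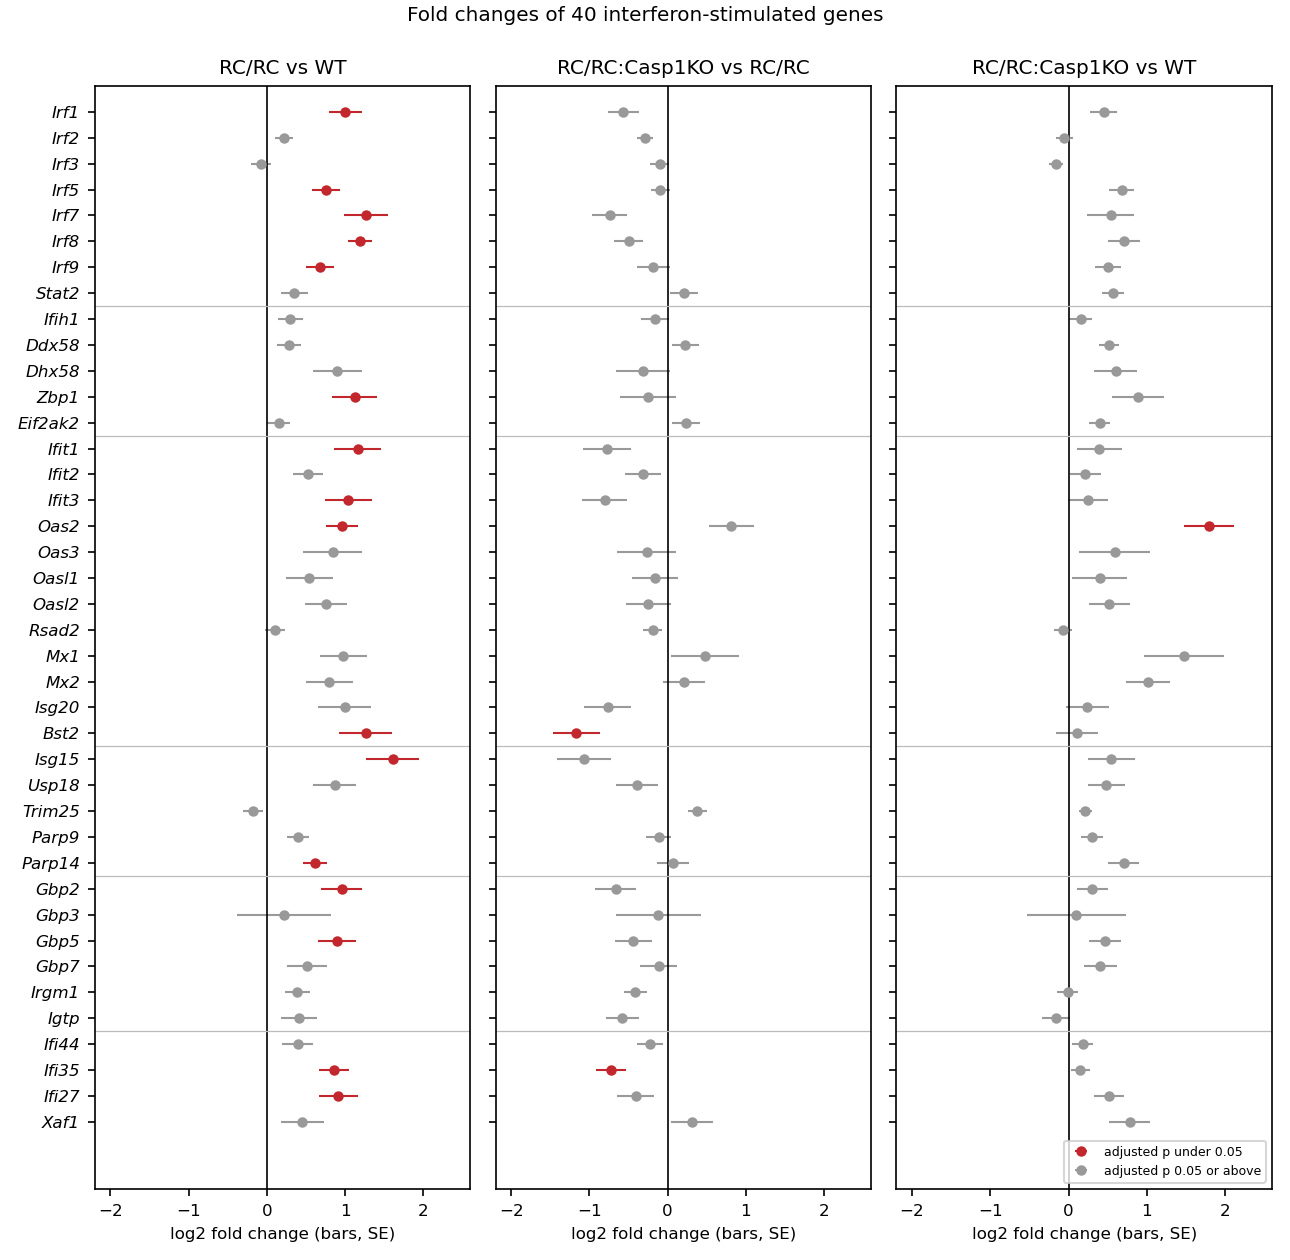
Points are edgeR log2 fold changes of the 40 genes, by role, and bars are their SE, with red for an adjusted p under 0.05. Values of RC/RC against WT are positive for 38 genes (16 red), those of RC/RC:Casp1KO against RC/RC are negative for 31 (2 red), and Oas2 is the 1 red point against WT, and neighboring panels share a group of mice.

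The 8 members known best as targets of interferon-gamma (Irf1, Irf8, Gbp2, Gbp3, Gbp5, Gbp7, Irgm1 and Igtp) were set beside the other 32. They were grouped by textbook knowledge and not by motif, and the windows of Gbp2, Gbp3 and Irgm1 held ISRE cores and no GAS letters. In RC/RC against WT, 4 of the 8 and 12 of the 32 rose, against 9.76% of all genes, with medians of 0.70 and 0.75. In RC/RC:Casp1KO against RC/RC, none of the 8 was called, all 8 had negative signs and the median was −0.47. Of the other 32, 2 fell, a share near the 4.41% of all genes, 23 had negative signs and the median was −0.21. The difference between these groups of genes was not tested.

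Interferon transcripts themselves were at the limit of detection. Of 21 interferon genes, 15 had no read in any mouse, and the 21 together had 33 reads over the 12 mice. Ifng held 22 of them, with 7, 8 and 7 reads in WT, RC/RC and RC/RC:Casp1KO mice and at most 4 in 1 mouse. Ifnb1 had no read, which allows up to 3 reads in a mouse, or 0.144 CPM at the mean library size of the WT mice. No interferon gene passed the filter on low counts, so edgeR tested no difference between groups at this depth. DESeq2 gave 1 of them an adjusted p in RC/RC against WT and called none.

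The receptors and their signaling were measured well. Of 14 genes, 5 rose in RC/RC against WT and none fell (9.76% and 3.18% of all genes, the shares to set beside this and the next lists). All 4 receptor chains of type I interferon and interferon-gamma were among the 5, Ifngr2 with a log2 fold change of 0.79 (SE 0.10, adjusted p = 0.00191), Ifngr1 with 0.56 (SE 0.14, adjusted p = 0.0346), Ifnar1 with 0.35 (SE 0.09, adjusted p = 0.0412) and Ifnar2 with 0.51 (SE 0.15, adjusted p = 0.0484). The fifth was Socs3, a feedback inhibitor of JAK-STAT signaling that interleukin-6 type cytokines also induce. Socs3 was at 3.10, 1.86, 2.57 and 2.31 CPM in WT mice, 28.1, 41.7, 26.3 and 19.5 CPM in RC/RC and 4.58, 7.72, 4.05 and 18.7 CPM in RC/RC:Casp1KO mice. It rose in RC/RC (log2 fold change 3.55, SE 0.26, adjusted p = 0.000132) and fell in RC/RC:Casp1KO against RC/RC (−1.73, SE 0.46, adjusted p = 0.0422), with RC/RC:Casp1KO mouse d close to the RC/RC mice.

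Ifngr1 and Ifngr2 also fell in RC/RC:Casp1KO against RC/RC (log2 fold changes −0.70 and −0.65, adjusted p-values 0.0289 and 0.0179). For Ifngr1 the levels were 34.2, 32.3, 36.7 and 39.1 CPM in WT mice, 41.6, 61.8, 46.2 and 59.6 CPM in RC/RC and 27.2, 33.8, 30.5 and 38.3 CPM in RC/RC:Casp1KO mice. All RC/RC mice lay above all mice of the other groups. Jak1, the most abundant gene of the list, was at 167 ± 7.7, 171 ± 10.3 and 163 ± 12.8 CPM in WT mice, RC/RC and RC/RC:Casp1KO mice (SD, n = 4).

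Of 12 genes of the sensing pathways that lead to interferon, 3 rose in RC/RC against WT and none fell. Tmem173 (STING), the adaptor for cytosolic DNA, was at 4.05, 3.62, 3.82 and 3.11 CPM in WT mice, 14.9, 20.4, 12.5 and 9.95 CPM in RC/RC and 5.46, 7.15, 5.16 and 12.8 CPM in RC/RC:Casp1KO mice. Both groups with RC alleles lay above WT, and RC/RC had a log2 fold change of 1.98 (SE 0.23, adjusted p = 0.000978). Aim2, an inflammasome sensor of DNA, had 1.69 (SE 0.25, adjusted p = 0.00296) and Myd88, the Toll-like receptor adaptor, 0.69 (SE 0.14, adjusted p = 0.0139). Myd88 fell in RC/RC:Casp1KO against RC/RC (−0.56, SE 0.14, adjusted p = 0.0345). Mavs, the adaptor of the RNA helicases and the most abundant of the list, was at 96.6 ± 3.3, 81.9 ± 10.4 and 92.6 ± 16.9 CPM in the 3 groups and passed no test.

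Of 64 further interferon-stimulated genes outside the 40, 62 were in the table and 59 were tested in RC/RC against WT. Of these 59, 21 rose and none fell, with a median log2 fold change of 0.67. They included the chemokines Cxcl11 (2.40, SE 0.41, adjusted p = 0.00558) and Cxcl10 (1.58, SE 0.27, adjusted p = 0.00607), which attract T cells, the DNA-binding Ifi204 (1.44, adjusted p = 0.00672) and the Schlafen gene Slfn2 (1.36, adjusted p = 0.00728). In RC/RC:Casp1KO against RC/RC 6 fell (4.41% of all genes did) and none rose (7.23%), with a median of −0.28. Among the 6 were the lysosomal reductase Ifi30 (−0.49, adjusted p = 0.0220), Lgals9 (−0.91, adjusted p = 0.0272), Ifi205 (−1.38, adjusted p = 0.0317) and Ifitm2 (−0.93, adjusted p = 0.0389), which blocks viral entry and was the most abundant of the list at 75.2 ± 22.7, 139 ± 54.5 and 73.1 ± 4.1 CPM. The others were Ifitm3 and Ifi47. None of the 59 passed the test of edgeR in RC/RC:Casp1KO against WT, where 23 were higher at an unadjusted p under 0.05 (11.8% of all genes were) and DESeq2 called 8 higher (4.58% of all genes).

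Markers of several leukocyte types were also higher in RC/RC than in WT kidneys. The 4 general leukocyte markers all rose in RC/RC against WT, as did 7 of 8 macrophage markers, 4 of 6 markers of conventional dendritic cells, 2 of 3 of plasmacytoid dendritic cells, 5 of 6 of T cells and 4 of 4 of B cells. None of the 3 neutrophil markers tested and none of the 4 endothelial markers did in edgeR. At an unadjusted p under 0.05, 1 and 2 of them were higher (17.3% of all genes were), and DESeq2 called 1 of each (10.6% of all genes). The neutrophil sum was barely apart, at 3.86 CPM or more in RC/RC mice and at most 3.82 CPM in WT mice. The natural killer markers were too low to test, at 17 reads or fewer in any mouse. Summed over the leukocyte markers, of which Laptm5 had the highest CPM, the level was 62.9, 46.1, 48.6 and 46.8 CPM in WT mice, 144, 154, 119 and 99.4 CPM in RC/RC and 54.5, 73.8, 66.5 and 153 CPM in RC/RC:Casp1KO mice. WT mouse a and RC/RC:Casp1KO mouse d were highest and RC/RC mouse d lowest in their groups, as they were for most of the 40 members. RC/RC:Casp1KO mouse c, lowest for 31 members, was above mouse a in this sum. The macrophage sum, which Csf1r led in CPM, was 198, 164, 168 and 152 CPM in WT mice, 539, 532, 479 and 398 CPM in RC/RC and 270, 253, 200 and 465 CPM in RC/RC:Casp1KO mice. The RC/RC mice lay above WT in both sums, RC/RC:Casp1KO mouse c was lowest of its group in the second, and 1 RC/RC:Casp1KO mouse lay among them. Lyz2, the lysozyme of myeloid cells, had a log2 fold change of 2.54 in RC/RC (SE 0.23, adjusted p = 0.000358), which is larger than that of any of the 40 members.

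No listed marker of these cell types was at 0 in all mice, and the T cell sum was 3.44 to 6.67 CPM in the WT group and 9.65 to 23.2 CPM in RC/RC mice. In RC/RC:Casp1KO against RC/RC, 2 macrophage markers (C1qb, log2 fold change −1.09, adjusted p = 0.0465, and C1qa, −1.22, adjusted p = 0.0492) and 1 B cell marker (Cd79b, −0.95, adjusted p = 0.0456) fell, against 4.41% of all genes. The median log2 fold change was −0.83 over the 8 macrophage markers, −0.81 over the 4 general leukocyte markers, −0.81 over the 6 T cell markers, −0.63 over the 4 B cell markers and −0.45 over the 4 endothelial markers. It was −0.41 over the 2 neutrophil markers tested, −0.21 over the conventional dendritic cell and −0.17 over the plasmacytoid dendritic cell markers, beside −0.25 over the 40 members and −0.03 over all genes. DESeq2 called 4 macrophage, 2 general leukocyte, 2 endothelial, 1 conventional dendritic cell and 1 B cell marker lower (7.87% of all genes). The kidney tubule and glomerulus markers identified the tissue as labelled, with a summed level of 13752 to 16857 CPM in WT. Slc34a1 had the highest CPM in this sum. Of the 9 markers 3 fell in RC/RC against WT (Slc12a3, Slc5a2 and Nphs1). Aqp2 was the 1 marker with a positive sign there and did not pass the test (log2 fold change 1.048, SE 0.34, adjusted p = 0.0739). DESeq2 called 1 of the 9 higher and 4 lower in that comparison (10.6% and 5.39% of all genes). In RC/RC:Casp1KO against RC/RC, 2 rose (Lrp2 and Slc12a3, with 7.23% of all genes higher), and DESeq2 called 3 higher (9.76% of all genes). The part of cell composition in the levels of the interferon-stimulated genes was not tested.

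**Figure D5:**
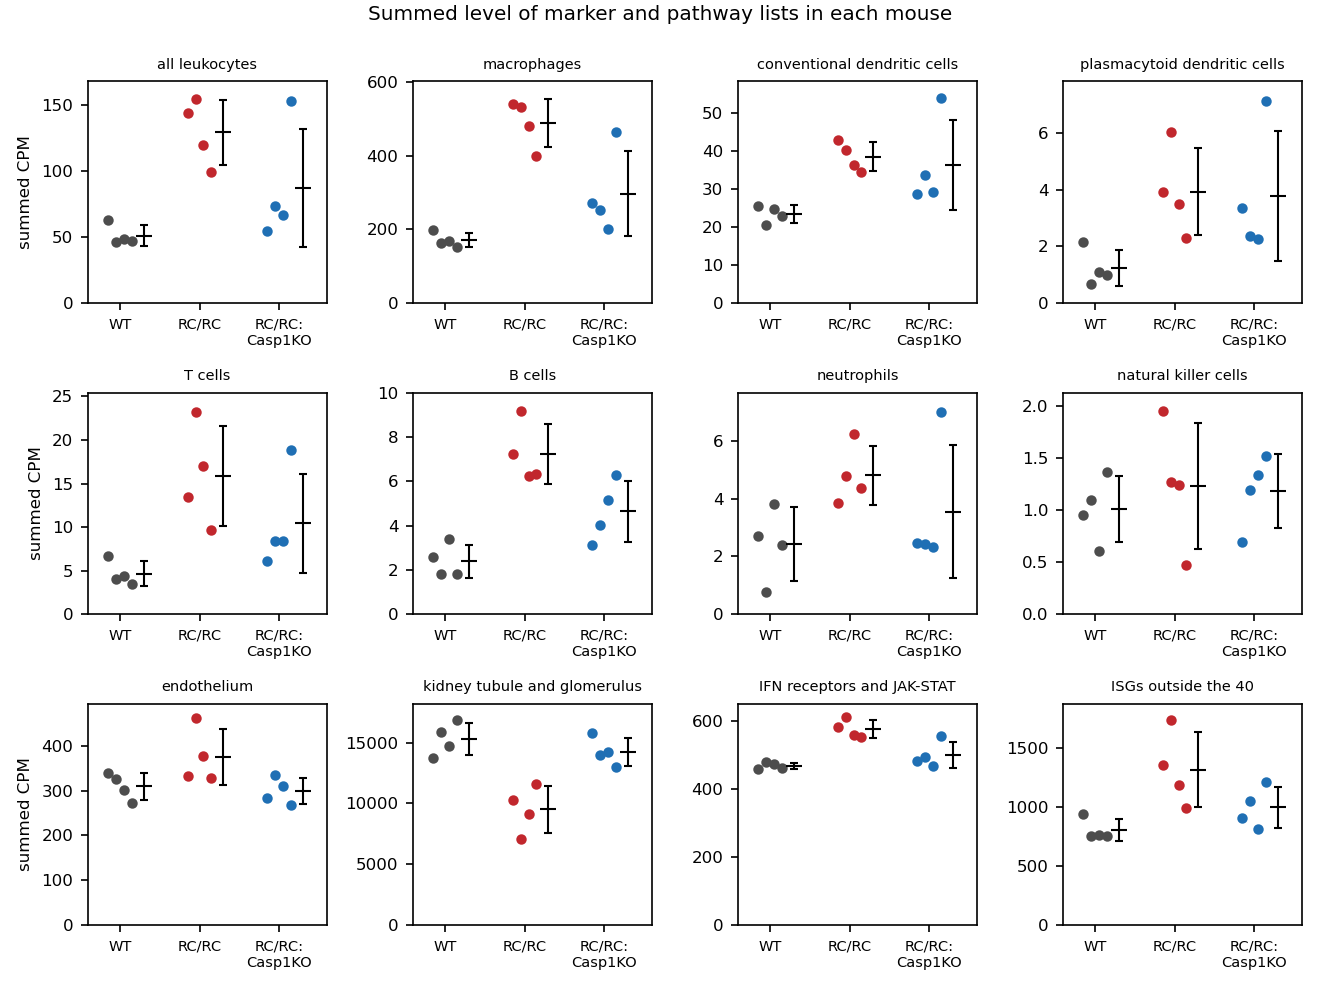
Each panel sums the CPM of the genes of 1 list in each mouse, with the y axis from 0 and the mean and SD of the 4 mice beside the points. General leukocyte, macrophage, dendritic, T and B cell sums are higher in all RC/RC than in all WT mice, and the natural killer sums overlap. The kidney marker sum, which Slc34a1 leads in CPM, is lower in RC/RC than in WT mice. RC/RC:Casp1KO mouse d (last blue point) is among or above the RC/RC mice in the leukocyte and macrophage panels.

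Some members share sequence or position with other genes. Ifit3 is 97.2% identical to Ifit3b over 2030 bases of transcript, and Mx1 and Mx2 are 95.3% identical over 843 bases, so their counts are uncertain where reads could be split. Ifit3b had 3022 reads over the 12 mice. Isg15 is 95.2% identical to Gm9706 over 482 bases, and Irf1 is 99.7% identical to Gm12216 (631 reads) over 623 bases and shares 1325 bases with Gm17334 (58 reads). Gbp5 is 100% identical to Gm66604 over 570 bases, Gbp7 to Gm43802 over 637 bases and Parp9 to Dtx3l (4247 reads) over 368 bases. In the table, Gbp5 overlaps Gbp3 and Gbp7 on the same strand, as Igtp does Irgm2 and Irf9 does Rnf31. Irf7 overlaps Phrf1, Irf5 overlaps Tnpo3 and Parp9 overlaps Dtx3l on opposite strands, and whether the counting used strand is not given in the sources used here.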

How the data were processed

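The members and gene lists were chosen with earlier results of these data known. Libraries of poly(A) RNA from 12 kidneys were sequenced, and the authors deposited 1 table of 35275 genes for the series. The deposited counts are raw reads per gene and mouse, which the authors did not normalize. The submitters' processing notes name CASAVA 1.8, STAR and mm10, and the counting tool and strand setting are not given in the sources used here. The deposited FPKM values and the authors' DESeq2 fold changes and p-values were not used. Columns name groups and not samples, so replicate numbers and sex were not assigned.

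Each comparison was fitted on 8 mice with edgeR 4.0.16 (R 4.3.3): TMM factors, filterByExpr, glmQLFit and glmQLFTest, with a call at a Benjamini-Hochberg adjusted p under 0.05. The SE equals the log2 fold change over the root of F. CPM uses TMM-scaled library sizes, and FPKM was computed from it and the deposited gene lengths. Alternatives were DESeq2 1.42.0, RLE factors, library size alone, 2 other filters, 1 fit of 12 mice, 1 surrogate variable (sva 3.50.0) and leaving out each mouse. A fit with a term for over 1000 reads of Xist was added after the data were seen. Near copies were sought with blastn 2.17.0 at 95% identity over 300 bases in reference transcripts.

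All 40 members are named. Values of every mouse are given for the 15 called members with the lowest adjusted p, for Irf1, Irf7, Irf9 and Stat2, and for the 3 members with the highest FPKM. Pathway lists name up to 4 called genes and the most abundant. Mitochondrial genes held 7.78% to 12.1% of reads. Intervals set by 3 reads cover counting error only.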

Additional observations from a re-analysis of the deposited data

Results flagged for a closer look

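In 4 of the 120 sets of 4 mice (40 genes in 3 groups) 1 mouse stood far from the other 3, by a test of its gap that chance passes in about 1 in 20 sets, so that 6 would be expected. Irf2 was at 31.9 CPM in RC/RC mouse b, above a nearest value of 26.5 CPM. Trim25 was at 72.2 CPM in the same mouse, below a nearest value of 95.4 CPM. Ddx58 was at 31.3 CPM in RC/RC:Casp1KO mouse c, below a nearest value of 45.2 CPM. Mx1 was at 5.62 CPM in RC/RC:Casp1KO mouse d, above a nearest value of 1.86 CPM.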

How the results depend on the processing

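In RC/RC against WT, the other tests, scalings and filters called 15 to 20 members against 16, 15 of the 16 genes were called in all 7 of these settings (Ifit3 in 5), and leaving out each mouse gave 5 to 20. In RC/RC:Casp1KO against RC/RC, 2 members became 7 with DESeq2, 0 with library size alone, 1 with all genes with at least 1 count, 6 with 1 surrogate variable, 7 with the term for Xist reads, and 0 to 7 when each mouse was left out. In RC/RC:Casp1KO against WT, 1 member became 7 with DESeq2, 2 in the fit over all 12 mice, 5 with 1 surrogate variable, 5 with the term for Xist reads, and 0 to 4 when each mouse was left out. The cause was not tested. Shares of all genes called are given above only for the main fit, DESeq2 and the fit with the term for Xist reads. Changes in number in the other settings therefore cannot be read as particular to the members. Library size alone moved the median of all genes from −0.02 to 0.08 in RC/RC against WT and from 0.01 to 0.14 in RC/RC:Casp1KO against WT. It also turned the sign of Irf3 in RC/RC against WT (0.020) and of Irf2 (0.077), Rsad2 (0.057) and Irgm1 (0.13) in RC/RC:Casp1KO against WT. Irgm1 turned as well with at least 10 counts in every mouse (0.00744) and with 1 surrogate variable (0.013). When single mice were left out, further small values changed sign. In RC/RC against WT, Eif2ak2 ranged from −0.016 to 0.25, Rsad2 from −0.0027 to 0.19 and Gbp3 from −0.18 to 0.69. Between RC/RC:Casp1KO and RC/RC, Irf9 ranged from −0.29 to 0.012, Oasl1 from −0.29 to 0.044, Mx1 from −0.21 to 0.67, Parp14 from −0.13 to 0.19, Gbp3 from −0.40 to 0.24 and Gbp7 from −0.28 to 0.049. Between RC/RC:Casp1KO and WT, Irf2 ranged from −0.11 to 0.031, Rsad2 from −0.14 to 0.012, Bst2 from −0.053 to 0.40, Gbp3 from −0.18 to 0.57 and Irgm1 from −0.12 to 0.077. No paired analysis was possible because the columns carry no replicate number.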
